A study of Mus musculus with 24 samples.

Results

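Hippocampal nuclei without the neuronal protein NeuN (NeuN-) from Ogg1-/- mice were compared with NeuN- nuclei from Mutyh-/- mice, which is 3 against 3 of the 24 RNA sequencing libraries of the series. The 6 libraries were chosen by genotype and sorted fraction alone, and no measured value entered that choice. Of the 55254 genes counted, 31863 passed a filter on low counts and all of these were tested. The mice were 6 months old and on a C57BL/6N background, and none had been treated. Ogg1-/- mice lack the DNA glycosylase Ogg1, Mutyh-/- mice lack the DNA glycosylase Mutyh, double knockouts (DKO) lack both and wild types (WT) lack neither. Frozen hippocampi were homogenised, nuclei were stained for NeuN and sorted by flow cytometry, and nuclei of several animals of a genotype were pooled per the methods of the study. The labels do not say whether the 3 replicates of a genotype are separate pools, so p-values measure only the spread between these libraries, which may be technical. A positive log2 fold change means a higher level in Ogg1-/- throughout.

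8-Oxoguanine is a common oxidation product of guanine that can pair with adenine. Ogg1 cuts out 8-oxoguanine paired with cytosine, whereas Mutyh cuts out the adenine that was placed opposite 8-oxoguanine, so both enzymes start base excision repair of the same lesion but act on opposite strands. NeuN- nuclei of the hippocampus come mainly from oligodendrocytes, which make myelin, from astrocytes, which take up transmitter and supply neurons, from microglia, the resident immune cells, and from oligodendrocyte precursors and vascular cells.

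The 6 libraries held 56982273 to 81859063 counts. Levels are given as CPM (counts scaled to 1M per library) after scaling between libraries, for replicates 1, 2 and 3 in that order. The NeuN- label was checked against defining markers. Rbfox3, the gene for NeuN, averaged 87.3 CPM in Mutyh-/- and 79.4 CPM in Ogg1-/- NeuN- libraries, against 1530.5 and 1469 CPM in the NeuN+ libraries of the same genotypes. The myelin gene Mbp averaged 2437 and 2127 CPM in NeuN- libraries against 97.1 and 98.7 CPM in NeuN+ libraries. The astrocyte water channel Aqp4 averaged 62.7 and 72.0 CPM against 2.05 and 2.44 CPM, and the microglial receptor Csf1r 230.9 and 214.4 CPM against 2.62 and 2.72 CPM. Neuronal RNA was thus reduced but not absent in the NeuN- libraries, and the endothelial junction gene Cldn5 was low at 0.474 to 0.815 CPM in Mutyh-/- and 0.600 to 0.700 CPM in Ogg1-/-.

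The targeted genes were examined first. Ogg1 (chr6:113326972-113335068, GRCm38) was counted at 6.81, 7.12 and 6.43 CPM in the Ogg1-/- libraries and at 6.45, 6.56 and 7.09 CPM in the Mutyh-/- libraries. These ranges overlap, and the log2 fold change was 0.02 ± 0.09 (edgeR quasi-likelihood test, adjusted p = 0.97). Here and below, ± is a standard error worked back from the F value of that test. It carries the spread of all libraries in the fit, WT and DKO included. Mutyh (chr4:116807723-116819440) was counted at 10.2, 10.5 and 10.1 CPM in the libraries labelled Mutyh-/- and at 3.56, 3.51 and 3.19 CPM in those labelled Ogg1-/-. Mutyh RNA was thus higher, not lower, in every library labelled Mutyh-/-, with a log2 fold change of -1.58 ± 0.11 (adjusted p = 0.000122). WT libraries held 3.07, 2.85 and 2.60 CPM and DKO libraries 7.21, 8.75 and 10.1 CPM of Mutyh, so the libraries labelled as lacking Mutyh were all above those labelled as carrying it. Counts summed over a gene hide its exons, so the level of neither gene tests whether the encoded protein was lost. Directions are given for the genotypes as labelled.

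A differentially expressed gene (DEG) had to pass 2 thresholds, an adjusted p below 0.05 and a log2 fold change beyond 0.5 in either direction. There were 166 DEGs, which is 0.521% of the genes tested. Of these, 92 were higher in Ogg1-/- (0.289%) and 74 were lower (0.232%). In all 166 DEGs the 3 Ogg1-/- libraries lay wholly above or wholly below the 3 Mutyh-/- libraries, as they did in 5173 genes or 16.2% of all genes tested. The median log2 fold change over all tested genes was 0.0015, and 3652 genes had an unadjusted p under 0.05. The DEGs nearest to the fold threshold were Gm26935 at -0.50 and Slc20a1, a phosphate transporter, at 0.50. Dgki, a diacylglycerol kinase, at -0.50 and Slc7a10 at 0.50 passed the adjusted p but fell just short of the fold threshold and were not DEGs. The count depended on single libraries: it was 66 without Mutyh-/- replicate 1, 342 without Mutyh-/- replicate 3, and 97, 78 and 84 without Ogg1-/- replicate 1, 2 and 3. Without Mutyh-/- replicate 1, 63 of the 66 DEGs were among the 166, and without Mutyh-/- replicate 3, 144 of the 342 were.

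**Figure D1:**
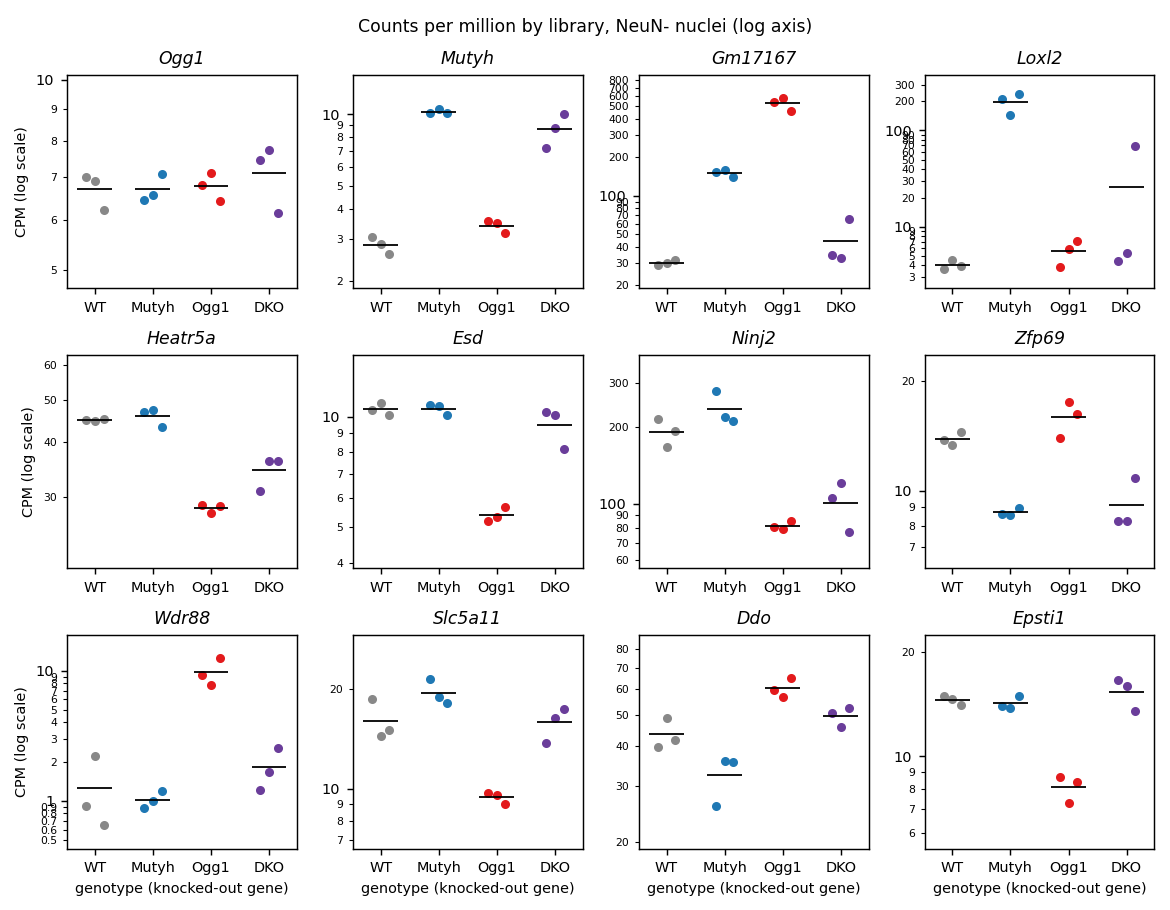
Level in CPM (log axis) of 12 genes in each NeuN- library by genotype, with points for replicates 1 to 3 from left to right and bars for group means. Mutyh is highest in the libraries labelled Mutyh-/- and DKO, Ogg1 overlaps in all genotypes, Gm17167 and Wdr88 stand highest in Ogg1-/-, Loxl2 in Mutyh-/-, and Heatr5a, Esd, Ninj2, Slc5a11 and Epsti1 are lower in Ogg1-/- than in Mutyh-/-.

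DEGs clustered at a few places in the genome. A position in GRCm38 was found for 163 of them, and 93 of the 166 (56.0%) lay on chromosomes 4, 6 and 14, which hold 14.9% of the genes tested. On these chromosomes 2.20%, 1.69% and 1.97% of tested genes were called. Joining DEGs with gaps under 1 Mb gave 12 runs of 3 or more, which together held 79 DEGs. Runs were found on chromosomes 4, 6, 8, 13 and 14, and were defined after the values had been seen, so their counts are a description. Within 10 Mb of Ogg1, 11 of 235 tested genes were called (4.68%), and within 10 Mb of Mutyh, 10 of 361 were (2.77%). Annotated spans of 47 DEGs overlapped that of another DEG, 36 of them on the opposite strand, and reads of such pairs may have been split between genes, since the strand setting of the counting is not given in the sources used here.

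The largest run, 24 DEGs at chr4:41809083-42612860, lay far from Mutyh on the same chromosome, and all 24 were higher in Ogg1-/-. This stretch holds many near-identical copies of chemokine genes of the Ccl21 and Ccl27 families, which guide lymphocytes and dendritic cells, and of Fam205 genes. Gm17167 (chr4:42206998-42235313), a noncoding transcript in the run, stood at 539, 585 and 456 CPM in Ogg1-/- and at 152, 159.7 and 139 CPM in Mutyh-/-. All Ogg1-/- libraries were thus more than 2-fold above all Mutyh-/- libraries, with a log2 fold change of 1.81 ± 0.21 (adjusted p = 0.00216). In WT its level was 28.5, 29.7 and 31.7 CPM and in DKO 34.2, 32.7 and 65.9 CPM, so both genotypes lay below both single knockouts. Gm13307 had the smallest p of the higher genes, with 129.8, 150.3 and 130.5 CPM in Ogg1-/- and 50.2, 45.6 and 58.4 CPM in Mutyh-/- (log2 fold change 1.41 ± 0.10, adjusted p = 0.000122). Gm21093, Gm3883, Gm5859 and Gm13303 followed with log2 fold changes of 1.34 ± 0.10, 1.39 ± 0.13, 1.72 ± 0.16 and 1.67 ± 0.16. In none of these did the groups overlap, and in each of the 4 genes WT and DKO were below Mutyh-/-. Ccl21b, a chemokine gene copy, was at 9.77, 12.6 and 12.0 CPM in Ogg1-/- and 2.99, 3.05 and 4.58 CPM in Mutyh-/- (log2 fold change 1.69 ± 0.23, adjusted p = 0.0045). Gm13306, a copy related to Ccl27, differed less, at 8.43, 10.8 and 9.02 CPM against 5.90, 4.76 and 5.50 CPM (log2 fold change 0.81 ± 0.12, adjusted p = 0.00672). Without Mutyh-/- replicate 1, 15 genes in the span of this run were called, against 24 with all libraries.

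The upstream sequences of 4 Ccl21 copies are shown because they make visible how alike these copies are. Each line gives 200 bases just upstream of the annotated gene start, aligned without gaps, 5′ to 3′, from RefSeq (GRCm38.p6), with the 2 positions at which any of them differ in capitals. Ccl21d is at chr4:41903412-41903611 (+), Gm13304 at chr4:42114586-42114785 (+), Gm10591 at chr4:42611922-42612121 (+) and Ccl21a at chr4:42773992-42774191 (-).
Ccl21d: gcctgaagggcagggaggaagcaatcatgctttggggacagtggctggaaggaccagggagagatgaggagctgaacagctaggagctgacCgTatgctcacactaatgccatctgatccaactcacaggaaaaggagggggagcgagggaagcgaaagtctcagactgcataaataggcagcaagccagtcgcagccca
Gm13304: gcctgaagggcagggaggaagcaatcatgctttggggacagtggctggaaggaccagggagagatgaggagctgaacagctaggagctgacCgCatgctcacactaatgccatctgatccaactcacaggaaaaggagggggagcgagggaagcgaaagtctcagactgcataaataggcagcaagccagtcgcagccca
Gm10591: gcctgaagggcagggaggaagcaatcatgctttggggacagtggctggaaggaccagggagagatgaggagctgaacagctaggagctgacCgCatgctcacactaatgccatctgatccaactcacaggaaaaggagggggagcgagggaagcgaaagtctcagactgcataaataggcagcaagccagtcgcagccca
Ccl21a: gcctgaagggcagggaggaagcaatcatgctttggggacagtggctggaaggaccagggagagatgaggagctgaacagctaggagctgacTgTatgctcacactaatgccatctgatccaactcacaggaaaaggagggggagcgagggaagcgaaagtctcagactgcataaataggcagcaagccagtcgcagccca
Counted from the first base shown, Gm13304 and Gm10591 differ from Ccl21d by T94C and Ccl21a by C92T. Ccl21d, Gm13304 and Gm10591, picked here after their values were seen, were higher in Ogg1-/- with log2 fold changes of 1.78 ± 0.23, 1.59 ± 0.25 and 1.64 ± 0.24 (adjusted p = 0.00385, 0.0108 and 0.00678). Ccl21a, which lies outside the run, was at 2.63, 3.56 and 3.10 CPM in Ogg1-/- and 2.00, 2.26 and 2.76 CPM in Mutyh-/- and was not called (log2 fold change 0.40 ± 0.22, adjusted p = 0.534). Over the 23 genes of the run with an annotated GENCODE transcript, the median gene had 95.2% of its 50-base windows in common with transcripts of another gene, against 0.27% over 119 DEGs outside this run and the Loxl2 run. Reads from these copies cannot be assigned to 1 of them with certainty, and the 24 calls are not 24 separate measurements.

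A second run, mostly of copies, held 15 DEGs at chr14:69241848-69695834 and was lower in Ogg1-/- throughout. Of these, 13 had over 90% of their 50-base windows in common with transcripts of other genes. Loxl2 had 45.0% and Slc25a37 6.99%. Loxl2 (chr14:69609068-69695834), which encodes a lysyl oxidase that crosslinks collagen, was at 211, 145 and 238 CPM in Mutyh-/- and 3.85, 5.95 and 7.17 CPM in Ogg1-/-, with no overlap. Its log2 fold change was -5.13 ± 0.89 (adjusted p = 0.0203), and without Mutyh-/- replicate 1 or any 1 of the Ogg1-/- replicates the adjusted p rose to at most 0.112. WT was at 3.69, 4.54 and 3.96 CPM, which overlapped Ogg1-/-, and DKO at 4.42, 5.31 and 68.4 CPM, where replicate 3 alone was raised. Slc25a37, the mitochondrial iron importer of heme-forming cells, was at 108, 86.0 and 118 CPM in Mutyh-/- and 33.7, 33.4 and 32.3 CPM in Ogg1-/- (log2 fold change -1.65 ± 0.18, adjusted p = 0.00159). Its DKO levels of 30.3, 32.2 and 54.5 CPM were again highest in replicate 3. The Golgi nucleotidase gene Entpd4 and its copy Entpd4b had log2 fold changes of -1.42 ± 0.21 and -1.43 ± 0.21 (adjusted p = 0.00837 and 0.00813). Every 50-base window of the Entpd4 transcripts also occurs in Entpd4b, so these values are of 1 pool of reads. The noncoding genes Gm27222 and Gm37094 in the run had log2 fold changes of -2.63 ± 0.29 and -2.26 ± 0.27 (adjusted p = 0.00153 and 0.00216). Loxl2, Entpd4 and Entpd4b were named after their values were seen. Without Ogg1-/- replicate 2, 5 genes in the span of this run were called, and the adjusted p of Entpd4 and Entpd4b was 0.0602 and 0.0590. The span held 9 called genes without Ogg1-/- replicate 1 and 9 without replicate 3, against 15 with all libraries.

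Further along chromosome 14, a run of 6 DEGs at chr14:73123037-75400446 did not consist of such copies. Esd, which encodes S-formylglutathione hydrolase, an enzyme of formaldehyde removal, was at 5.22, 5.36 and 5.68 CPM in Ogg1-/- and 10.7, 10.7 and 10.1 CPM in Mutyh-/- (log2 fold change -0.95 ± 0.09, adjusted p = 0.000526). All Ogg1-/- libraries were below all Mutyh-/- libraries, and WT (10.4, 10.9 and 10.1 CPM) and DKO (10.3, 10.1 and 8.15 CPM) were near Mutyh-/-. The neighbouring lincRNA Gm49200 had the opposite direction, with 3.02, 3.74 and 3.84 CPM in Ogg1-/- and 0.517, 0.543 and 0.692 CPM in Mutyh-/- (log2 fold change 2.59 ± 0.26, adjusted p = 0.000809). Rb1, the retinoblastoma cell cycle repressor, and Rcbtb2, both named after their values were seen, had log2 fold changes of -0.54 ± 0.09 and -0.58 ± 0.08 (adjusted p = 0.0126 and 0.00592). The spans of Rb1 and Rcbtb2 overlap on opposite strands. The adjusted p of Rb1 rose to at most 0.0894 without 1 library, with the call lost without Mutyh-/- replicate 1, Mutyh-/- replicate 2 or Ogg1-/- replicate 3. Epsti1 (chr14:77904239-78002657), an interferon-induced gene beyond the end of that run, was at 8.72, 7.30 and 8.42 CPM in Ogg1-/- and 14, 13.8 and 15 CPM in Mutyh-/- (log2 fold change -0.81 ± 0.09, adjusted p = 0.00113).

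Around Ogg1, 9 of the 11 DEGs within 10 Mb were lower in Ogg1-/- and 2 were higher. Grm7, the metabotropic glutamate receptor mGluR7 that lowers cAMP, lies 1.76 Mb from Ogg1 and was at 250.4, 249 and 260.0 CPM in Ogg1-/- and 424, 351 and 415 CPM in Mutyh-/-. Its groups did not overlap, and the log2 fold change was -0.65 ± 0.08 (adjusted p = 0.00335). WT was at 485, 452 and 454 CPM and DKO at 337, 316 and 273 CPM, so Ogg1-/- was the lowest of the 4 genotypes. Ninj2, an adhesion protein gene of nerve injury, lies 6.76 Mb away and was at 81.1, 79.7 and 85.3 CPM in Ogg1-/- and 279, 220.4 and 211 CPM in Mutyh-/-. The log2 fold change was -1.53 ± 0.15 (adjusted p = 0.000753), with DKO at 105, 121 and 77.1 CPM nearer to Ogg1-/-. Zfp248, a zinc finger gene, was at 9.71, 8.56 and 9.18 CPM against 14, 14.1 and 14 CPM (log2 fold change -0.62 ± 0.06, adjusted p = 0.000566).

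The Wnt ligand gene Wnt5b and the antisense-overlapping Gm20387, next to Grm7, had log2 fold changes of -0.56 ± 0.10 and -0.71 ± 0.13 (adjusted p = 0.0265 and 0.0242). Gm44237 and Gm8203 had -1.19 ± 0.15 and -1.57 ± 0.30 (adjusted p = 0.00331 and 0.0315). Transcripts of H2afz hold 100% of the windows of Gm8203, so its counts are uncertain. Higher in Ogg1-/- were Rassf4, a Ras-association protein gene, at 0.60 ± 0.12, and Depp1, a FOXO-induced autophagy gene, at 1.37 ± 0.23 (adjusted p = 0.0372 and 0.0171). Among these 6, the call of Gm44237 was kept whichever library was left out. Rassf4 lost it without any library but Mutyh-/- replicate 3, and Depp1 without either of replicates 1 and 2 of both genotypes. Wnt5b lost it without 4 of the 6 libraries (Mutyh-/- replicates 1 and 3, Ogg1-/- replicates 1 and 2), and Gm20387 and Gm8203 without Mutyh-/- replicate 1 or any Ogg1-/- replicate, with adjusted p up to 0.168.

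About 15 Mb from Ogg1, a run of 9 DEGs at chr6:128359518-129717132 held killer cell lectin-like and C-type lectin genes, which encode receptors of natural killer and myeloid cells. Klri1, an inhibitory lectin receptor gene, was at 1.25, 1.3 and 1.58 CPM in Ogg1-/- and 0.168, 0.0631 and 0.103 CPM in Mutyh-/- (log2 fold change 3.61 ± 0.38, adjusted p = 0.00104). DKO was at 1.76, 1.03 and 1.46 CPM and WT at 0.109, 0.0607 and 0.212 CPM, so both genotypes without Ogg1 were above both genotypes with it. Clec7a, which encodes the fungal receptor dectin-1 and marks activated microglia, ran the other way, at 0.102, 0.0307 and 0.137 CPM in Ogg1-/- and 0.698, 0.568 and 0.936 CPM in Mutyh-/- (log2 fold change -3.02 ± 0.50, adjusted p = 0.0157). Its call was lost without Mutyh-/- replicate 1, Ogg1-/- replicate 1 or Ogg1-/- replicate 2, with adjusted p up to 0.0799. A filter of 10 counts in every library removes both Klri1 and Clec7a, so their folds are uncertain. DESeq2 gave Clec7a no adjusted p. Clec2j, named after its values were seen, was at 0.233, 0.153 and 0.137 CPM against 0, 0.0252 and 0 CPM, where 2 Mutyh-/- libraries had no count, and its call (adjusted p = 0.0452) was lost without any 1 library but Mutyh-/- replicate 2 (adjusted p up to 0.228). At the start of the run, Tex52, Gm43965, Gm44596 and Gm15862 overlap or adjoin each other within a few kilobases. All 4 were lower in Ogg1-/-, with log2 fold changes of -1.49 ± 0.16, -2.48 ± 0.22, -0.96 ± 0.11 and -1.32 ± 0.16. Transcripts of other genes, mostly Nrip2, hold 92.3% of the windows of Gm44596, so its counts are uncertain. Tex52 was at 5.72, 6.11 and 7.36 CPM in Ogg1-/- and 18.9, 16.4 and 18.6 CPM in Mutyh-/-, with DKO at 7.80, 6.54 and 4.75 CPM, near Ogg1-/-.

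**Figure D2:**
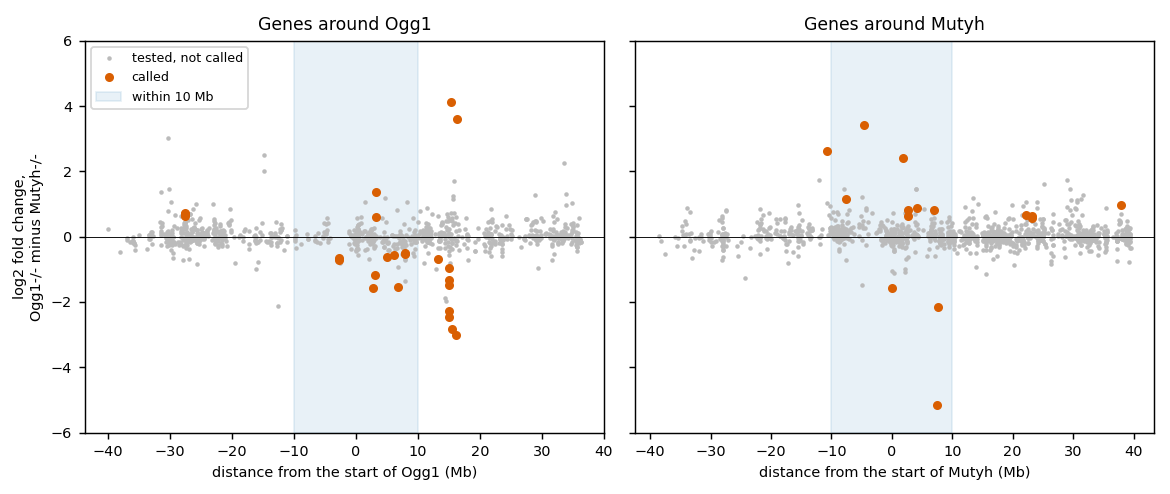
Log2 fold change (Ogg1-/- minus Mutyh-/-, NeuN-) of tested genes against distance in Mb from the start of Ogg1 and of Mutyh, with DEGs in orange and the 10 Mb windows shaded. DEGs lie inside both windows, 11 around Ogg1 and 10 around Mutyh, and a further cluster of DEGs stands about 15 Mb from Ogg1.

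Around Mutyh, 7 of the 10 DEGs were higher in Ogg1-/- and 3, Mutyh included, were lower. Zfp69, a zinc finger gene linked to lipid storage, was at 14, 17.5 and 16.3 CPM in Ogg1-/- and 8.60, 8.59 and 8.96 CPM in Mutyh-/- (log2 fold change 0.87 ± 0.11, adjusted p = 0.0029). WT was at 13.8, 13.3 and 14.5 CPM and DKO at 8.26, 8.25 and 10.8 CPM, so both genotypes without Mutyh were below both genotypes with it. Rhbdl2, a rhomboid protease gene, was at 6.45, 6.95 and 6.83 CPM against 3.93, 3.55 and 3.99 CPM (log2 fold change 0.82 ± 0.11, adjusted p = 0.00504), with DKO at 4.04, 3.90 and 4.91 CPM. The calreticulin-related Calr4 was at 2.63, 2.62 and 2.78 CPM against 1.28, 1.26 and 1.1 CPM (log2 fold change 1.14 ± 0.14, adjusted p = 0.0023). The lincRNA 1700057H15Rik was lower in Ogg1-/-, at 2.13, 1.78 and 1.99 CPM against 8.43, 9.37 and 8.54 CPM (log2 fold change -2.16 ± 0.18, adjusted p = 0.000256), and DKO stood at 7.93, 6.31 and 5.17 CPM. Its neighbour 1700021L23Rik was at 0, 0.0153 and 0 CPM in Ogg1-/- and 0.246, 0.177 and 0.308 CPM in Mutyh-/- (adjusted p = 0.0046). Skint3, of an immunoglobulin-like family, was at 0.204, 0.215 and 0.172 CPM against 0.0388, 0.0126 and 0 CPM (adjusted p = 0.0342). These levels are so low that no fold is given for either gene.

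Gm12853, Zmynd12 and Rimkla, the last a ligase that makes N-acetylaspartylglutamate, had log2 fold changes of 2.41 ± 0.32, 0.81 ± 0.15 and 0.62 ± 0.12 (adjusted p = 0.0045, 0.0315 and 0.0315). The filter of 10 counts in every library removes Gm12853, so its fold is uncertain. Rimkla lost its call whichever of the 6 libraries was left out, at adjusted p of 0.0519 (without Mutyh-/- replicate 3) to 0.140 (without Mutyh-/- replicate 1). Zmynd12 lost its call without Mutyh-/- replicates 1 or 2 or Ogg1-/- replicates 2 or 3, with adjusted p up to 0.171. Skint3 lost it without any library but Mutyh-/- replicate 3, with adjusted p up to 0.130.

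Outside the runs and both 10 Mb windows lay 79 DEGs, of which 45 were higher and 34 lower in Ogg1-/-, and 36 were protein coding. The count of called genes there depended most on single libraries, and the genes counted need not be among the 79. It was 19 without Mutyh-/- replicate 1, 253 without Mutyh-/- replicate 3, and 41, 31 and 28 without Ogg1-/- replicates 1, 2 and 3. Heatr5a (chr12:51875871-51971321), a gene of endosomal protein sorting, was at 28.7, 27.5 and 28.6 CPM in Ogg1-/- and 46.9, 47.5 and 43.4 CPM in Mutyh-/- (log2 fold change -0.70 ± 0.06, adjusted p = 0.000463). The Ogg1-/- libraries were the lowest of all genotypes. WT, at 45.0, 44.8 and 45.2 CPM, overlapped Mutyh-/-, and DKO, at 31, 36.3 and 36.2 CPM, lay between the single knockouts. Slc5a11, an inositol transporter gene, was at 9.74, 9.61 and 8.97 CPM in Ogg1-/- and 21.5, 19.0 and 18.1 CPM in Mutyh-/- (log2 fold change -1.05 ± 0.11, adjusted p = 0.00113). The means of WT (18.6, 14.4 and 15 CPM) and DKO (13.8, 16.4 and 17.5 CPM) lay between those of the single knockouts, nearer to Mutyh-/-.

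Wdr88 (chr7:35236233-35275556, RefSeq), a WD repeat gene, was at 9.23, 7.73 and 12.5 CPM in Ogg1-/- and 0.880, 0.997 and 1.19 CPM in Mutyh-/- (log2 fold change 3.26 ± 0.39, adjusted p = 0.00228). WT libraries had 0.917, 2.21 and 0.648 CPM and DKO libraries 1.20, 1.66 and 2.54 CPM, so Ogg1-/- stood above every library of the other 3 genotypes. Tmem200c, a membrane protein gene, was at 6.29, 6.57 and 6.38 CPM against 3.41, 4.02 and 3.77 CPM (log2 fold change 0.78 ± 0.09, adjusted p = 0.00216). The noncoding genes Gm9750, Gm26843, BC006965 and Gm12239 had log2 fold changes of 0.77 ± 0.08, 1.04 ± 0.12, 0.72 ± 0.08 and 0.67 ± 0.08 (adjusted p = 0.00113, 0.0019, 0.00216 and 0.00228), and Gm26843 belongs to a run of 3 on chromosome 8. In Gm9750, Gm26843, BC006965 and Tmem200c, WT was nearer to Ogg1-/- than to Mutyh-/-.

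Further DEGs outside the runs were chosen after their values were seen, for their known roles. Ddo, the oxidase that breaks down D-aspartate, was at 59.6, 56.7 and 65.3 CPM in Ogg1-/- and 26, 35.8 and 35.6 CPM in Mutyh-/- (log2 fold change 0.90 ± 0.12, adjusted p = 0.00385). Its neighbour on chromosome 10, the methyltransferase-like gene Mettl24, had a log2 fold change of 0.90 ± 0.14 (adjusted p = 0.0115), which rose to 0.0652 at most when 1 library was left out (lost without Mutyh-/- replicate 1 or Ogg1-/- replicate 3). The urea cycle gene Otc was at 7.32, 8.52 and 9.02 CPM against 3.16, 3.13 and 4.42 CPM (log2 fold change 1.21 ± 0.18, adjusted p = 0.00737), and its adjusted p was 0.0603 without Mutyh-/- replicate 1. Gpnmb, a lysosomal glycoprotein gene of activated microglia and pigment cells, was lower at 5.10, 4.93 and 3.84 CPM against 8.99, 8.86 and 8.65 CPM (log2 fold change -0.93 ± 0.15, adjusted p = 0.0137), with a highest adjusted p of 0.0801 when Mutyh-/- replicate 1, Ogg1-/- replicate 2 or Ogg1-/- replicate 3 was left out. Gh, growth hormone, which the pituitary makes, was at 3.63, 0.290 and 0.782 CPM in Mutyh-/- and 0.0292, 0.0153 and 0.0343 CPM in Ogg1-/-. Among the Mutyh-/- libraries replicate 1 stood far above the others, no fold is given at these counts, and the call (adjusted p = 0.0277) was lost without Mutyh-/- replicate 1 or any 1 Ogg1-/- replicate, with adjusted p up to 0.145.

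WT and DKO levels were not in the contrast, but both groups entered the filter, the scaling and the spread estimate of the same fit. Genes of a run of copies are not separate measurements, and shares over all tested genes are not given here. Over all 166 DEGs, DKO was nearer to Ogg1-/- in 90 and nearer to Mutyh-/- in 76 on the log2 scale. This split differed between positions. Of the 20 DEGs within 10 Mb of Ogg1 or in the lectin run, DKO was nearer to Ogg1-/- in 19 and WT nearer to Mutyh-/- in 20. Of the 10 DEGs around Mutyh, DKO was nearer to Mutyh-/- in 9 and WT nearer to Ogg1-/- in 10. In the chromosome 4 copies both DKO and WT were nearer to Mutyh-/- in all 24, in the Loxl2 run both were nearer to Ogg1-/- in all 15, and in the Esd run both were nearer to Mutyh-/- in all 6. Among the other 91 DEGs, DKO was nearer to Ogg1-/- in 55 and WT in 53.

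**Figure D3:**
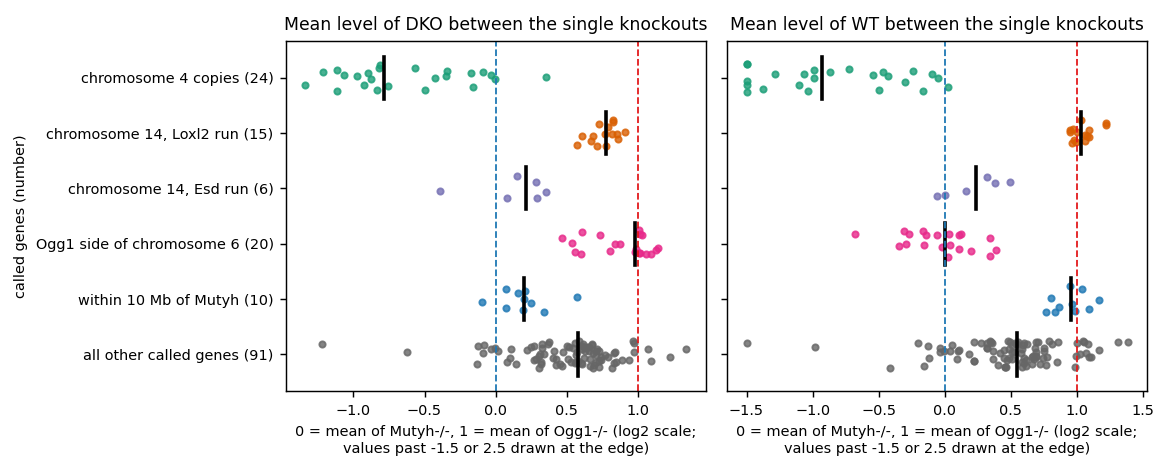
Mean level of DKO (left) and WT (right) for each DEG on a log2 scale set to 0 at the mean of Mutyh-/- and 1 at the mean of Ogg1-/- (0.05 CPM added to each mean), with bars for the median of each set. DEGs on the Ogg1 side of chromosome 6 have a median of 0.98 for DKO and 0.0025 for WT, DEGs within 10 Mb of Mutyh 0.20 for DKO and 0.95 for WT, and the chromosome 4 copies lie mostly below 0 for both (medians of -0.79 and -0.93).

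The same contrast was then read in the NeuN+ libraries, which hold neuronal nuclei and were sequenced on other lanes, so that fraction and lane cannot be told apart. There, 146 of 30132 genes were called (0.485%), 76 higher and 70 lower in Ogg1-/-. Of the 166 NeuN- DEGs, 146 were tested in NeuN+, and 131 of these had the same sign, against 60.1% of all 28491 genes tested in both fractions. Called in both fractions, with the same sign in each, were 60 DEGs. They included 23 of the 24 chromosome 4 copies, all 15 of the Loxl2 run and 4 of the 6 of the Esd run. Outside the runs and windows they included 12 of the 67 DEGs that were tested in NeuN+, out of 79. Both fractions may come from the same pools of hippocampi, so this may be a repeat in other libraries but not in other animals. Gm17167 had a log2 fold change of 1.66 ± 0.15 in NeuN+ (adjusted p = 1.07e-05), Loxl2 -7.37 ± 1.17 (adjusted p = 0.00512) and Esd -1.04 ± 0.12 (adjusted p = 0.000174). Heatr5a was at -0.68 ± 0.12 (adjusted p = 0.0141) and Zfp248 at -0.54 ± 0.06 (adjusted p = 0.000146). Not called in NeuN+ were Ninj2 at -0.31 ± 0.16 (adjusted p = 0.433), Slc5a11 at 0.10 ± 0.23 (adjusted p = 0.895), Wdr88 at 0.38 ± 0.35 (adjusted p = 0.692) and Grm7 at -0.28 ± 0.05 (adjusted p = 0.0146), whose fold was below the threshold.

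Whether the contrast differed between the fractions was tested by an interaction over all 24 libraries. It passed an adjusted p of 0.05 in 27 of 33523 genes (0.0805%), with 2425 at an unadjusted p under 0.05. Of these 27, 7 were also NeuN- DEGs. Epsti1 was lower in Ogg1-/- NeuN- nuclei (log2 fold change -0.81 ± 0.09) and at 0.73 ± 0.17 in NeuN+ nuclei, where it was not called. Its interaction was -1.55 ± 0.17 (adjusted p = 0.000120). Mutyh was lower in Ogg1-/- in both fractions, by more in NeuN+ (-3.08 ± 0.14), with an interaction of 1.48 ± 0.19 (adjusted p = 0.000461). Zfp69, at 0.05 ± 0.08 in NeuN+, had an interaction of 0.79 ± 0.13 (adjusted p = 0.0119), and Spock1, a brain proteoglycan gene, one of -0.71 ± 0.12 (adjusted p = 0.0119). In NeuN- nuclei Spock1 was at 387, 392 and 391 CPM in Ogg1-/- and 682, 558 and 523 CPM in Mutyh-/- (log2 fold change -0.59 ± 0.10, adjusted p = 0.0235), a call that was lost without Mutyh-/- replicate 1 or any 1 Ogg1-/- replicate (adjusted p up to 0.114). For Ninj2, Slc5a11, Wdr88 and Grm7 the interaction did not pass the threshold (adjusted p = 0.0604, 0.0832, 0.0605 and 0.183), so a difference between fractions was not shown for them.

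**Figure D4:**
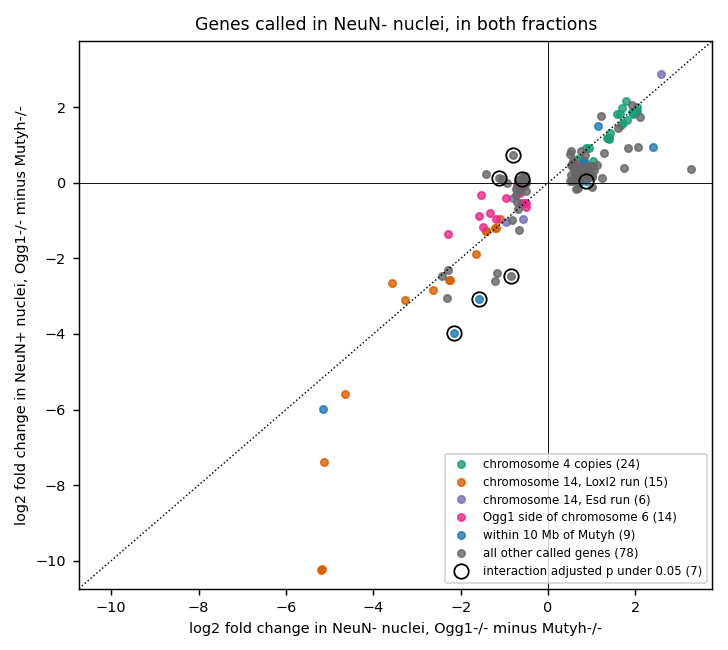
Log2 fold change of Ogg1-/- minus Mutyh-/- in NeuN- (horizontal) and NeuN+ nuclei (vertical) for the 146 NeuN- DEGs tested in both, coloured by position, with a dotted line of equal values and rings around the 7 DEGs whose interaction passed an adjusted p of 0.05. The chromosome 4 copies lie along the line in the upper right and the Loxl2 run in the lower left, whereas many other DEGs lie near 0 in NeuN+.

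Cell type markers were read next, as lists. With edgeR's quasi-likelihood test no marker on the 8 cell type lists was a DEG, against 0.521% of all genes tested. An unadjusted p under 0.05 was found for 28 of the 100 markers and for 3652 of all 31863 genes tested. DESeq2 and edgeR's likelihood ratio test each called 1 marker, Klk6. In what follows a list is said to be led by its members with the smallest p. In bulk nuclei, fewer cells of a type and less RNA per cell cannot be told apart. Oligodendrocyte markers lay below 0 in 14 of 15, with a median log2 fold change of -0.20 (0.0015 over all genes tested). The kallikrein gene Klk6 at -0.93 ± 0.22 and Ugt8a, which makes myelin galactolipid, at -0.24 ± 0.07 had the smallest p of the list (adjusted p = 0.0847 and 0.181). Klk6 passed with DESeq2 (adjusted p = 0.0139) and with the likelihood ratio test (adjusted p = 0.0162). Summed over the list, oligodendrocyte markers were at 7992 to 8684.5 CPM in Ogg1-/- and at 8530 to 10309 CPM in Mutyh-/-, with overlap. All 10 precursor markers lay below 0, with a median of -0.09. Enpp6 (-0.37 ± 0.08, adjusted p = 0.0715) and Gpr17 (-0.21 ± 0.12, adjusted p = 0.585), which mark precursors that are turning into oligodendrocytes, led that list.

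Astrocyte markers lay above 0 in 14 of 15, with a median of 0.20. The neurotensin receptor gene Ntsr2 was at 104, 111 and 109 CPM in Ogg1-/- and 76.4, 82.6 and 72.2 CPM in Mutyh-/-, and the D-serine and glycine transporter gene Slc7a10 at 121, 127 and 113 CPM and 85.4, 92.7 and 78 CPM. Neither pair of groups overlapped, and both genes passed the adjusted p (0.0045 and 0.00592) but not the fold threshold, with log2 fold changes of 0.49 ± 0.07 and 0.50 ± 0.07. The same held for Aldh1l1, a folate enzyme gene, at 0.48 ± 0.10 (adjusted p = 0.0452). Slc7a10 was called without Mutyh-/- replicate 1 or 2 or Ogg1-/- replicate 3, and Ntsr2 without Mutyh-/- replicate 2 or Ogg1-/- replicate 1, at adjusted p of at most 0.0422. Slc7a10 was also called with the 6 libraries alone (log2 fold change 0.51, adjusted p = 0.0289), and Aldh1l1 without Mutyh-/- replicate 3. The summed astrocyte markers nevertheless overlapped, at 5468 to 6714 CPM in Ogg1-/- and 4635 to 6079 CPM in Mutyh-/-. Microglial markers lay below 0 in 13 of 15 (median -0.11), led by Tmem119 (-0.34 ± 0.11) and the complement gene C1qa (-0.28 ± 0.10). Neuronal markers lay below 0 in 10 of 14 (median -0.11), led by Nrgn (-0.24 ± 0.08) and Tubb3 (-0.41 ± 0.16), and their sums were 1152 to 1277 CPM in Ogg1-/- and 1190 to 1238 CPM in Mutyh-/-. Endothelial and pericyte markers (median 0.03, led by Pdgfrb at 0.25 ± 0.06 and Tek at 0.25 ± 0.09) and meningeal markers (median -0.01, led by Slc6a13 at -0.71 ± 0.35 and Col1a1 at 0.28 ± 0.15) were on either side of 0.

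Choroid plexus and ependymal markers stood apart by library. Ttr, which encodes transthyretin and marks the choroid plexus, was at 5.79, 76.2 and 78.6 CPM in Ogg1-/- and 16.1, 13.2 and 12.8 CPM in Mutyh-/-, so replicates 2 and 3 of Ogg1-/- were above all Mutyh-/- libraries and replicate 1 below. The list had a median log2 fold change of 1.01 with 7 of 10 above 0, none called, and its sum ran from 18.7 to 123.3 CPM in Ogg1-/- against 32.0 to 37.9 CPM in Mutyh-/-. The potassium channel subunit gene Kcne2 at 2.02 ± 0.90 and the ciliary factor gene Foxj1 at -0.41 ± 0.13 had the smallest p of the list, in opposite directions (adjusted p = 0.421 and 0.234). Without Ogg1-/- replicate 1, the library with the least choroid plexus RNA, 97 DEGs were called, as given above. The part of choroid plexus RNA in the other DEGs was not tested.

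**Figure D5:**
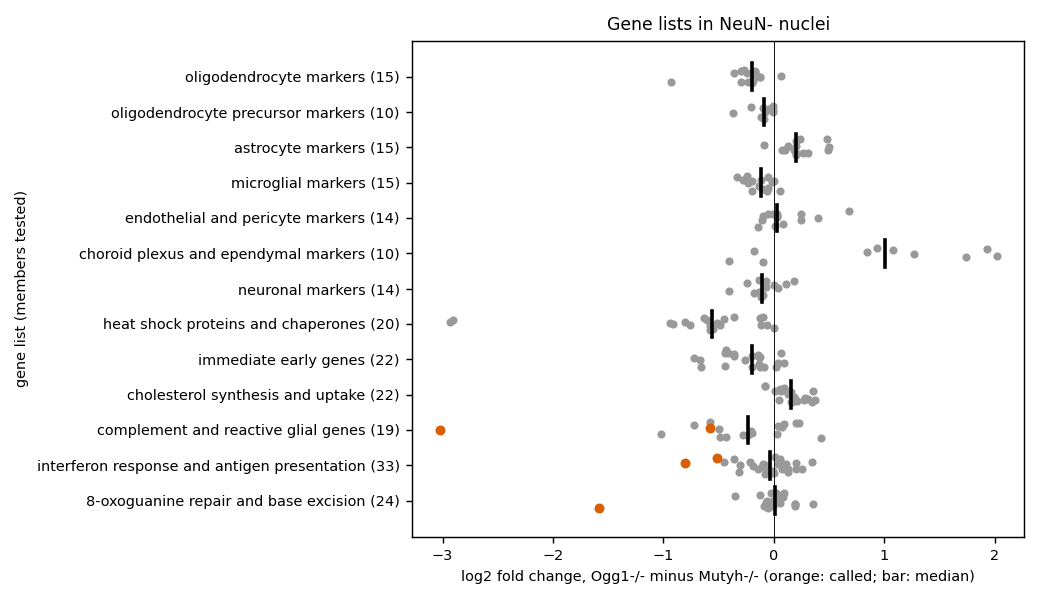
Log2 fold change of each tested member of 13 gene lists (Ogg1-/- minus Mutyh-/-, NeuN-), with DEGs in orange and bars for list medians. Oligodendrocyte markers lie mostly below 0 and astrocyte markers mostly above it, and heat shock genes reach furthest below 0 among the lists with no DEG by the quasi-likelihood test. By other tests Klk6 (DESeq2, likelihood ratio) and 3 heat shock genes (likelihood ratio) were called.

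Among 24 genes of 8-oxoguanine repair and base excision, Mutyh was the only DEG, against 0.521% of all genes tested, and the list median was 0.01. Heat shock and chaperone genes, which are induced by unfolded protein, lay below 0 in 19 of 20 with a median of -0.56, the lowest of the lists. None was called by the quasi-likelihood test or DESeq2, and 13 had an unadjusted p under 0.05, against 3652 of all 31863 genes tested. The likelihood ratio test of edgeR called 3, all lower: Hspa1a (adjusted p = 0.0376), Hspa5 (adjusted p = 0.0354) and Hspa1b, which the rule for named genes did not cover. Hspa1a, the inducible Hsp70, was at 9.58, 4.25 and 2.09 CPM in Ogg1-/- and 52.4, 56.7 and 11.7 CPM in Mutyh-/-, where replicates 1 and 2 stood above all others and replicate 3 was close to the highest Ogg1-/- library. Its log2 fold change was -2.91 ± 0.86 (adjusted p = 0.181). Hspa5, the chaperone of the endoplasmic reticulum, was at 43.5, 45.9 and 31.2 CPM and 90.3, 89.5 and 47.6 CPM (log2 fold change -0.91 ± 0.26, adjusted p = 0.166). Mutyh-/- replicate 3 was again the lowest of its group, and without it Hspa5 was called, at -1.16 (adjusted p = 0.0278). The summed list was at 856 to 1302 CPM in Ogg1-/- and 1216 to 1959 CPM in Mutyh-/-. WT libraries were at 987 to 1252 CPM and DKO libraries at 828 to 1293 CPM, so the highest sums were in Mutyh-/-. Immediate early genes, which neurons and glia induce within minutes of a stimulus, lay below 0 in 18 of 22 (median -0.20), led by Junb at -0.26 ± 0.11 and Egr4 at -0.72 ± 0.34, with none called by any tool and 1 at an unadjusted p under 0.05.

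Cholesterol genes lay above 0 in 20 of 22 (median 0.15), with 10 at an unadjusted p under 0.05, against 3652 of all 31863 genes tested. None was called on all libraries by the quasi-likelihood test, DESeq2 or the likelihood ratio test. Insig1, which holds back sterol synthesis, was at 27.0, 26.9 and 28.1 CPM in Ogg1-/- and 21.7, 22.2 and 22.4 CPM in Mutyh-/- without overlap (log2 fold change 0.31 ± 0.07, adjusted p = 0.0777), and the sterol oxidase gene Msmo1 was at 0.28 ± 0.07 (adjusted p = 0.0946). Interferon and antigen presentation genes had 2 DEGs of 33 (0.521% of all genes tested were DEGs), both lower, Epsti1 and Usp18, with a median of -0.04. Usp18, a protease that removes the interferon-induced tag Isg15 and lies 7.91 Mb from Ogg1, was at 4.48, 4.70 and 4.85 CPM in Ogg1-/- and 6.47, 6.25 and 7.36 CPM in Mutyh-/- (log2 fold change -0.52 ± 0.10, adjusted p = 0.0287), a call lost without any 1 library but Mutyh-/- replicate 2 (adjusted p up to 0.122). Complement and reactive glial genes had 2 DEGs of 19 (again against 0.521%), both lower, Clec7a and Serpina3n, with a median of -0.23. Serpina3n, a protease inhibitor of reactive astrocytes and oligodendrocytes, was at 3.21, 3.13 and 3.91 CPM against 5.41, 4.49 and 5.43 CPM (log2 fold change -0.58 ± 0.12, adjusted p = 0.0406), and its adjusted p rose to 0.219 at most, with the call lost without 4 of the 6 libraries (Mutyh-/- replicates 1 and 3, Ogg1-/- replicates 1 and 2).

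Of 33 genes of cAMP-mediated signalling, Grm7 was the only DEG (list median -0.09), against 0.521% of all genes tested. Grm7 is also among the glial genes named by the study, with Bdnf at -0.09 ± 0.25, Oaf at 0.28 ± 0.07, Npr3 at 0.33 ± 0.28 and Wnt6 at 0.05 ± 0.50, none of them called. The study showed Oaf as a glial gene in its histone mark data. Grm7, Bdnf, Npr3 and Wnt6 came from pathways shared by its RNA and histone mark data, so these libraries had a part in their choice. The list of chemokine and receptor copies on chromosome 4 had 7 DEGs of 15 (against 0.521%), all higher, with a median of 0.92, as described for the run. Lists with no DEG and a median nearer to 0 included antioxidant and glutathione genes (34 tested, median 0.02, led by Sod3 at 0.33 ± 0.10 and Prdx6 at 0.32 ± 0.10), p53 targets (18, -0.02, led by Phlda3 at -0.28 ± 0.10 and Eda2r at -0.42 ± 0.18) and glycolysis genes (22, -0.03, led by Hk1 at 0.13 ± 0.05 and Pkm at -0.13 ± 0.05). The same held for clock genes (19, 0.12, led by Hlf at 0.42 ± 0.10 and Rorb at 0.33 ± 0.10), polycomb complex genes (13, -0.03, led by Eed at -0.13 ± 0.06 and Epop at -0.33 ± 0.19) and DNA methylation genes (16, -0.05). In the last list 15 of 16 lay below 0. Zbtb38, which binds methylated DNA, passed the adjusted p (0.0323) at a log2 fold change of -0.27 ± 0.05, below the fold threshold, and Tet2, the member above 0, was at 0.11 ± 0.05. Cytosolic ribosomal proteins lay below 0 in 73 of 88 (median -0.07, led by Rpl10 at -0.24 ± 0.08 and Rpl37a at -0.23 ± 0.10). Nuclear respiratory chain subunits (82, median 0.002, led by Ndufs5 at 0.43 ± 0.10 and Cox7b2 at 0.40 ± 0.14), nuclear and imprinted noncoding RNAs (14, -0.02, led by Neat1 at -0.25 ± 0.09 and H19 at 0.92 ± 0.47) and Y-linked genes (4, -0.06, led by Kdm5d at -0.07 ± 0.05 and Eif2s3y at -0.14 ± 0.11) had no DEG either. Ndufs5, at 7.67, 7.67 and 7.50 CPM in Ogg1-/- and 5.64, 6.11 and 5.19 CPM in Mutyh-/-, lies on chromosome 4 within 10 Mb of Mutyh. Mitochondrially encoded genes were not analysed here.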

How the data were processed

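Deposited values were raw counts per gene that the authors made, per the submitters' processing notes, from paired-end reads with HISAT2 2.1.0, SAMtools 1.10 and featureCounts (GRCm38, Ensembl annotation). RNA came from a kit for fixed tissue and libraries from a stranded total RNA kit. The strand and multimapping settings are not given in the sources used here. Here, edgeR 4.0.16 (R 4.3.3) fitted the 12 NeuN- libraries with TMM factors and filterByExpr, and its quasi-likelihood test gave Ogg1-/- minus Mutyh-/- with Benjamini-Hochberg adjustment over all genes tested. Fraction differences were tested by an interaction over 24 libraries. Library totals of the 6 libraries were 56982273 to 81859063 counts. The members and gene lists were chosen with earlier results of these data known. Named genes were Ogg1 and Mutyh, the 15 higher and 15 lower DEGs of smallest adjusted p, the nearest DEGs around Ogg1 and Mutyh (at most 8 each), list members, defining markers and interaction genes, and others are said to be chosen after their values were seen. Positions are from GENCODE vM21, or RefSeq where missing there. Alternatives were RLE and upper quartile factors, filters, DESeq2 1.42.0, the likelihood ratio test, the 6 libraries alone, a replicate block, other thresholds and leaving out each library. The fitting scripts were tested on simulated data.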

Additional observations from a re-analysis of the deposited data

Results flagged for a closer look

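In 7 DEGs of NeuN- nuclei the contrast of Ogg1-/- with Mutyh-/- differed from that in NeuN+ nuclei by the interaction over 24 libraries (edgeR quasi-likelihood test). Values are the NeuN- log2 fold change less the NeuN+ one. Epsti1, an interferon-induced gene, had -1.55 (adjusted p = 0.000120), with -0.81 ± 0.09 in NeuN- and 0.73 ± 0.17 in NeuN+ nuclei. It was not called in NeuN+, so a rise there was not shown. Mutyh had 1.48 (adjusted p = 0.000461), being lower in Ogg1-/- in both fractions.

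Gm3952 had 1.60 (adjusted p = 0.000126), with -0.86 ± 0.12 in NeuN- and -2.47 ± 0.12 in NeuN+ nuclei, and its annotated transcript windows are also held by Ccdc7a, so its counts are uncertain. Zfp69 had 0.79 and Spock1 -0.71 (adjusted p = 0.0119 for both). The noncoding genes B230220B15Rik and 1700057H15Rik had -1.29 (adjusted p = 0.0145) and 1.79 (adjusted p = 0.0224). Transcripts of other genes hold 86.5% of the windows of B230220B15Rik, so its counts are uncertain too. The NeuN- call of B230220B15Rik was lost without Mutyh-/- replicate 1, Ogg1-/- replicate 1 or Ogg1-/- replicate 3, with adjusted p up to 0.0781. The call of Spock1 was lost without Mutyh-/- replicate 1 or any 1 Ogg1-/- replicate. All 7 also passed with a replicate block. The fractions were run on different lanes, so fraction and lane cannot be told apart.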

How the results depend on the processing

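The 166 DEGs became 303 with DESeq2 (182 higher, 121 lower, 6803 genes with no adjusted p), 317 with the likelihood ratio test, 83 above an absolute log2 fold change of 1 and 251 by adjusted p alone. Leaving out 1 library gave 66 (Mutyh-/- replicate 1) to 342 (Mutyh-/- replicate 3), the cause was not tested, and it gave 97, 78 and 84 without Ogg1-/- replicates 1, 2 and 3. Counts of 164, 163, 202, 147 and 115 came from RLE factors, upper quartile factors, no filter, at least 10 counts in every library and the 6 libraries alone. The 21 DEGs within 10 Mb of Ogg1 or Mutyh became 10 above a log2 fold change of 1, 32 by adjusted p alone, and 12 (without Mutyh-/- replicate 1) to 21 when 1 library was left out. Settings for the next 3 counts were chosen after seeing the data. Leaving out 1 library gave 15 to 26 called genes in the span of the chromosome 4 copies and 5 to 15 in that of the Loxl2 run. Outside the runs and windows it gave 19 to 253, DESeq2 212, the likelihood ratio test 216 and the 6 libraries alone 47. In NeuN+ the 146 DEGs became 318 with the likelihood ratio test and 96 (without Ogg1-/- replicate 3) to 521 (without Mutyh-/- replicate 3) with 1 library left out.

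Same-numbered libraries of Ogg1-/- and Mutyh-/- had correlations of deviations of 0.0742, 0.00305 and 0.109 in NeuN-, and 0.0579, 0.0957 and 0.144 in NeuN+. Pairs with different numbers ran from -0.0967 to 0.0356 in NeuN- and from -0.100 to 0.0154 in NeuN+. Deviations from a group mean sum to 0 within the group, so these values do not settle whether the replicate numbers pair the samples. With the numbers as a block there were 145 DEGs, of which 137 were among the 166, and 54 interaction genes in place of 27. Of 63 named DEGs, 41 kept their call whichever library was left out, 22 lost it at least once, 10 lost it under another setting (9 with the 6 libraries alone, 5 with the block) and none changed sign. These leave out 6 named DEGs, Clec7a among them, that had no adjusted p with DESeq2, which called the other 57, and 8 removed by the filter of 10 counts in every library. Genes that were not called changed sign near 0. With 1 library left out, the log2 fold change ran from -0.017 to 0.061 for Ogg1, -0.29 to 0.19 for Bdnf, -0.21 to 0.50 for Wnt6, -0.067 to 0.040 for Pdgfra and -0.18 to 0.19 for Cldn5. Pdgfra was at 0.0016 with the 6 libraries alone.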
